A study of Drosophila melanogaster with 8 samples.

Results

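RNA of sperm and RNA of stage 17 embryos of Drosophila melanogaster were set side by side in the medium sugar condition. The comparison covers 11178 of the 15146 genes in the tables, chosen because they reached at least 1 FPKM (sequenced fragments per length of transcript and per total of mapped fragments, a level corrected for length and depth) in sperm, in embryos or in both. The choice used levels in either tissue and not the difference between them. The study sequenced 8 libraries of strain w1118, with 2 libraries in each of 4 groups. The sperm groups are spermatozoa of adult males kept on 30 g/L (medium) or 300 g/L (high) of sugar, and the embryo groups are whole stage 17 embryos sired by males on the same diets. The 30 g/L groups are compared here, and the 300 g/L groups serve as other libraries of the same tissues. The labels used here give no diet for the mothers, do not say how sperm were collected and do not say how many animals went into a library.

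A Drosophila sperm is a very long flagellated cell with highly compacted chromatin, in which histones have been replaced by protamines. Transcription in the male germ line takes place largely in spermatocytes, with a few genes transcribed in late spermatids, so RNA in mature sperm is thought to be mostly stored RNA. Seminal fluid comes from the accessory glands, the ejaculatory duct and the ejaculatory bulb, and the tract that holds the sperm is wrapped in muscle. At stage 17, the last stage of embryogenesis, the embryo has formed its organs, is laying down the larval cuticle and has contracting muscles and a working nervous system.

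Each group has 1 deposited value per gene, in which the authors combined both libraries. No test and no spread between libraries can therefore be given, and every difference below is a description of these pools. Each table was scaled on its own and the read depth behind it is unknown, so ranks within a tissue and shares of summed FPKM are given beside the ratios. In whole tissues, fewer cells of a type and less RNA per cell cannot be told apart.

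Markers of the labelled cells were checked first. All 12 late spermatid markers reached 1 FPKM in sperm against 2 in embryos, with sums of 579 and 5.11 FPKM. Of 99 epidermis and cuticle markers, 49 reached 1 FPKM in embryos and 11 in sperm, where 81 were listed at 0. The sperm pool also held markers of other cells. Of 11 muscle markers, 10 reached 1 FPKM in sperm, with a sum of 3493 FPKM against 5730 in embryos, so this sum was above that of the spermatid markers. Of 8 accessory gland markers 7 reached 1 FPKM in sperm, as did 5 of 6 duct and bulb markers, with sums of 88.7 and 577 FPKM. Of 8 spermatocyte markers 4 reached 1 FPKM in sperm and 2 in embryos, with sums of 54.3 and 78.4 FPKM, while can, aly and comr were listed at 0 in sperm. The neuron markers Syt1 and para and all 5 ovary and egg markers were also listed at 0 there. In the high sugar sperm pool 0 spermatocyte and 0 neuron markers were listed at 0. Of 6 fat body markers 2 reached 1 FPKM in sperm and 1 in embryos (sums of 727 and 268 FPKM), of 6 haemocyte markers 4 in each (32.4 and 117 FPKM), of 4 glia markers 3 and 4 (44.7 and 66.6 FPKM), and of 6 neuron markers 2 and 6 (18.4 and 107 FPKM). The part of these other cells in the results below was not tested.

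Late spermatid genes, seminal fluid genes, chaperones, glycolytic enzymes and several defence genes had higher levels in sperm, while cuticle, nervous system, patterning, cell division and ribosome genes had higher levels in embryos. A gene counts as higher in a tissue when log2((sperm + 0.1)/(embryo + 0.1)) was at least 2 or at most -2, which is 4-fold on a scale that understates differences of low genes. By this measure 1627 genes, 14.6% of all members, were higher in sperm, and 3184 genes, 28.5%, were higher in embryos. The other 6367 lay between. The median log2 ratio of all members was -0.76, with quartiles of -2.32 and 0.59, and list medians below are to be read against it. List counts are likewise to be read against the 14.6% and 28.5% of all members. Of the 1627 genes 1153 were below 1 FPKM in embryos, and of the 3184 genes 2065 were below 1 FPKM in sperm. Those genes entered the set only through the tissue where they were higher. Scaling both tables to one sum moved the ratios of genes well above the pseudocount by 0.32 towards sperm, and by 0.85 when the top sperm gene was left out of the sums. Sperm-higher genes made up 33.8% of the genes past 4-fold. That split depends on the scaling: it was 47.9% when both tables were scaled to the same sum without the top sperm gene, with 2182 genes higher in sperm and 2369 in embryos, and 47.1% when ratios were centred on their median, with 2118 and 2383.

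Both tissues shared much of their expressed genome. Of the members, 7550 reached 1 FPKM in both tissues, 1337 did so in sperm alone and 2291 in embryos alone. A larger number was listed at 0 in sperm, 1359 against 410 in embryos. The median level was 5.03 FPKM in sperm and 7.76 FPKM in embryos. Across the 11178 genes the Spearman correlation between tissues was 0.44, and 0.59 over the genes at 1 FPKM in both. Across the same genes the 30 and 300 g/L pools correlated at 0.91 for sperm and 0.97 for embryos. These are correlations across genes, which are not independent replicates, and each pair of pools shares gene lengths and annotation.

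The high sugar pools, whose columns the choice of genes did not use, gave a like division. There 1559 of the same genes, 13.9%, were higher in sperm and 3146, 28.1%, in embryos. The sperm-higher genes of both conditions overlapped in 1377 genes, 84.6% of the medium and 88.3% of the high sugar list. The embryo-higher genes overlapped in 2558, which is 80.3% and 81.3%. Past 4-fold in the other direction lay 27 of the medium sugar sperm-higher genes and 5 of the embryo-higher genes.

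**Figure D1:**
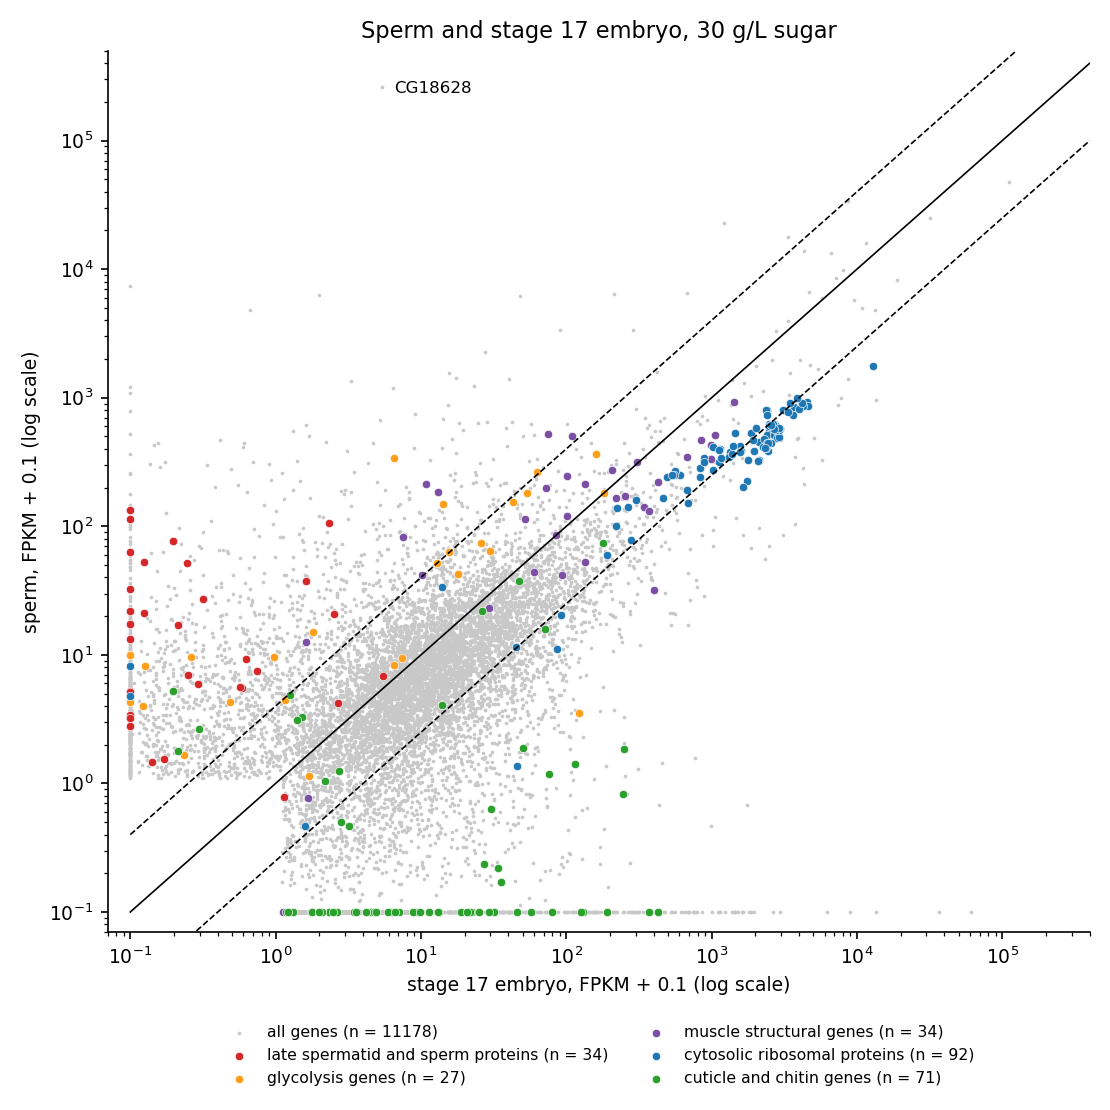
Level of each of the 11178 genes in embryos (x axis) and in sperm (y axis), both as FPKM + 0.1 on log scales, 30 g/L sugar. Grey points are all genes, coloured points are members of 5 lists, the solid line marks equal values and the dashed lines 4-fold; late spermatid genes (red) lie at the upper left, cuticle genes (green) along the bottom, ribosomal protein genes (blue) in a band below the line of equal values, and CG18628 stands above every other gene.

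A single short gene dominated the summed FPKM of sperm. CG18628, a protein-coding gene whose function the annotation used here does not give, had 261647 FPKM in sperm and 5.26 FPKM in embryos, a log2 ratio of 15.57. In the high sugar pools it had 253937 and 2.03 FPKM. It alone made up 31.1% of all sperm FPKM and 50.6% of that of nuclear protein-coding genes. FPKM divides by length, so a short gene weighs more in this sum than in a sum of reads. CG18628 lies on 3L from 10632871 to 10633236 (build BDGP5), and its longest transcript in the newer annotation has 334 nucleotides in 2 exons. Of the 7 genes whose loci lie within 2 kb of it, none was above 22.4 FPKM in sperm. Within 20 kb lies CG42521, at 10616166 to 10616676, with 1202 FPKM in sperm and listed at 0 in embryos.

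**Figure D2:**
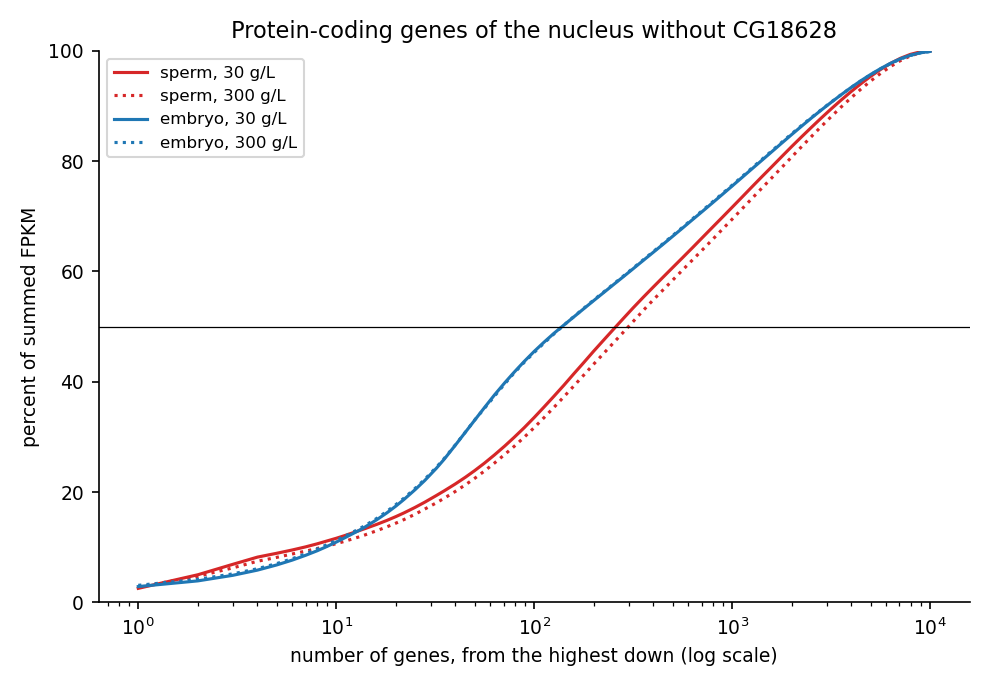
Share of the summed FPKM of nuclear protein-coding genes without CG18628 (y axis, percent) held by the given number of genes from the highest down (x axis, log scale), for the 4 pools. The embryo curves lie above the sperm curves at 100 genes, where the top genes hold 45.5% in embryos and 33.5% in sperm at 30 g/L, and the line at 50% is reached with 139 genes in embryos and 259 in sperm.

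Without CG18628, the summed FPKM of nuclear protein-coding genes was spread over more genes in sperm than in embryos. The 100 highest nuclear protein-coding genes held 33.5% of the summed FPKM in sperm and 45.5% in embryos. It took 259 genes in sperm and 139 in embryos to reach 50% of the sum, and 300 and 139 in the high sugar pools. Of the top 100 genes, 51 were shared, and 43 of these were cytosolic ribosomal proteins. Ribosomal proteins filled 46 of the top 50 places in embryos and 20 in sperm.

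Several mRNAs of the mitochondrial genome, given below, were among the most abundant named mRNAs of sperm, with mt:CoI at 16119 FPKM. Among named nuclear mRNAs other than those of ribosomal proteins, the most abundant came from different families. MtnA, a metallothionein that binds metal ions, had 6523 FPKM in sperm and 679 in embryos. The glutathione transferase GstD1 had 3351 and 89.9 FPKM. The calcium-binding protein regucalcin had 1544 and 15.4 FPKM, and the water channel Drip 1226 and 22.9 FPKM. All 4 were also past 4-fold towards sperm in the high sugar pools. Among genes with a CG number, CG10407 (Jhbp5 in the newer annotation) had 6303 FPKM in sperm and 1.88 in embryos, and CG5612 had 4822 and 0.570. In embryos the highest named mRNA was RpL41, of the large ribosomal subunit, with 12901 FPKM against 1772 in sperm. Ef1alpha48D, a translation elongation factor, was high in both tissues, at 1023 FPKM in sperm and 1864 in embryos.

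RNA classes other than nuclear mRNA took unequal shares of the summed FPKM. These are not shares of reads, since the division by length gives short RNAs more weight. Small and structural RNA made up 9.93% of summed FPKM in sperm and 33.8% in embryos, and 147 of its 191 members were higher in embryos. Of the 191, 111 were listed at 0 in one of the tissues. The mitochondrial genome held 15.6% in sperm and 18.9% in embryos. Among its mRNAs, mt:CoI, a subunit of cytochrome c oxidase, had 16119 FPKM in sperm and 11569 in embryos, and mt:Cyt-b, of complex III, had 6618 and 4671. Of its 19 members 3 were higher in sperm and 4 in embryos, with a median of 0.21. One of them is uncertain, because mt:ND4L (2260 FPKM in sperm, 27.4 in embryos) overlaps the locus of mt:ND4 (1298 and 1675 FPKM).

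Genes of late spermatids and of the sperm itself were higher in sperm in 31 of 34 cases, against 14.6% of all genes, and in none higher in embryos. Their median log2 ratio was 5.59, and 6.79 in the high sugar pools. The median percentile rank was 75.9 in sperm and 5.14 in embryos. The 4 Mst84D genes, which encode cysteine-rich proteins of the sperm tail and lie within 6.01 kb on 3R (3189017 to 3195027), were all listed at 0 in embryos. In sperm Mst84Da had 21.9 FPKM, Mst84Db 133, Mst84Dc 114 and Mst84Dd 63.4. Mst87F, of the same family, had 106 FPKM in sperm and 2.22 in embryos. Sperm values of these genes thus ran over a wide range, while in embryos none exceeded 2.22 FPKM. The sperm leucyl aminopeptidase S-Lap1 had 77.4 FPKM against 0.0958, and S-Lap7 had 52.6 against 0.0240. The testis gene ocn had 76.3 and 0.0967 FPKM. All of these had higher sperm values in the high sugar pool: 236 for Mst84Db, 264 for Mst87F, 229 for S-Lap1 and 189 for ocn. Whether sugar or the libraries account for that difference cannot be told apart from the values used here. Tektin-C, Mst33A and gdl-ORF39 were the 3 members that lay between the bounds. Before the bound of 1 FPKM the list had 36 genes, of which 33 reached it in sperm and 6 in embryos. Most members thus entered the set through their sperm level.

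**Figure D3:**
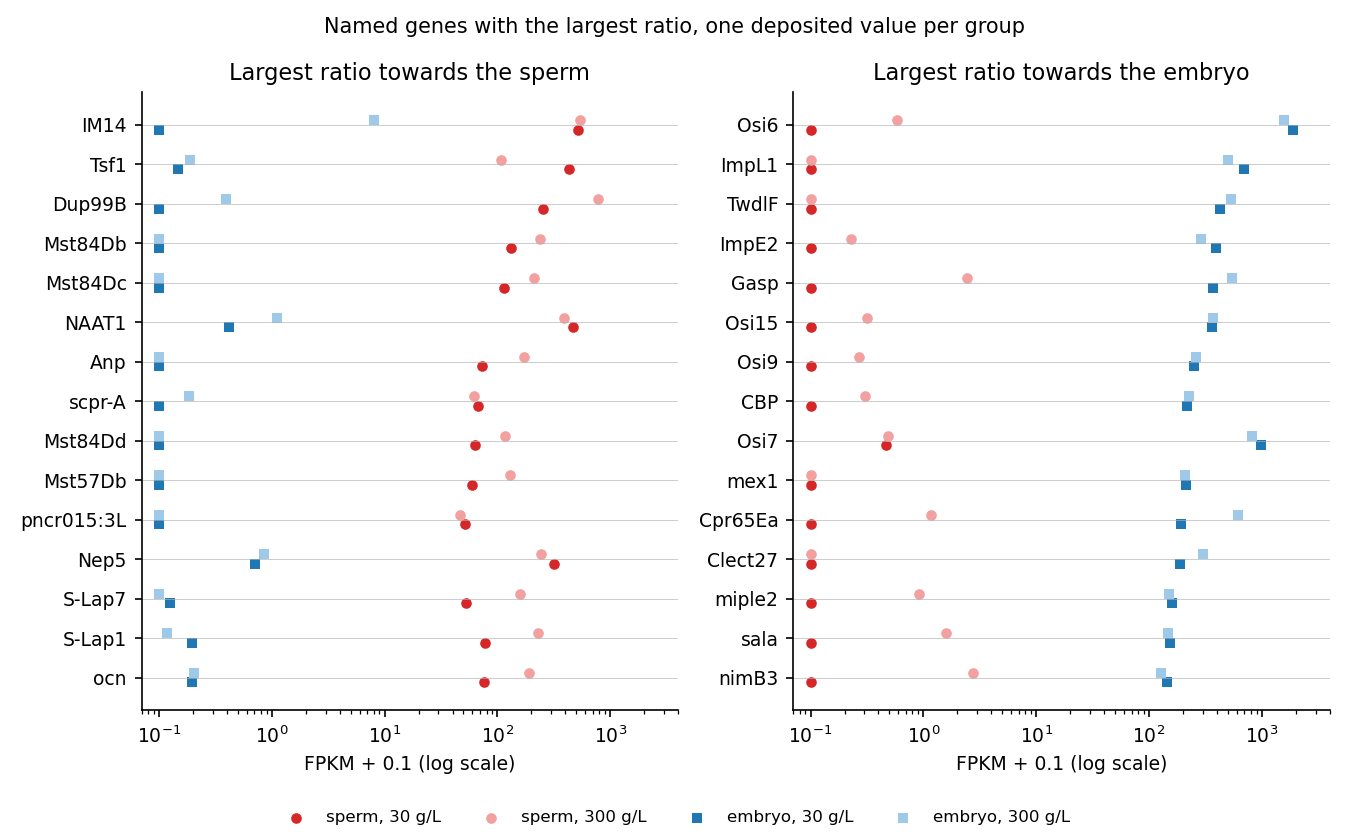
FPKM + 0.1 (log scale) of the 15 named genes with the largest ratio towards sperm (left) and towards embryos (right), among those with at least 10 FPKM in the higher tissue; circles are sperm, squares embryos, dark 30 g/L and pale 300 g/L, each point 1 deposited value. In both panels the sperm and embryo points are separated in each sugar condition; a point at 0.1 is a gene listed at 0.

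Sperm chromatin genes were present at modest levels. Of the 7 protamine and spermatid chromatin genes, 6 were higher in sperm and 0 in embryos, with a median of 4.80. All 7 reached 1 FPKM in sperm and 2 did so in embryos. Mst77F, which packs DNA in the sperm head, had 20.6 FPKM against 2.42, and the protamine gene Mst35Ba 3.13 FPKM against a value listed at 0. Among replacement histones, His2Av, a variant of histone H2A, had 23.8 FPKM in sperm and 246 in embryos, and His3.3B had 209 and 393. Of 6 histone genes with a level of 1 FPKM, 3 were higher in embryos and 0 in sperm (median -1.998). The tables hold 116 histone genes, most of them copies of the replication-dependent cluster, and those other than the 6 were below 1 FPKM in both tissues. Reads of near-identical copies may be split between them, so the single values of the cluster genes are uncertain and do not show absence.

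Of the 19 cup and comet genes in the tables, which are transcribed after meiosis, 15 reached 1 FPKM in sperm and 6 in embryos. The 16 that did so in either tissue are the members. Of the 16 cup and comet genes, whose RNA gathers at the ends of elongating spermatids, 8 were higher in sperm and 1 in embryos, with a median of 1.98. At high sugar 13 were higher in sperm and 1 in embryos, with a median of 4.22. Here soti, an inhibitor of the ubiquitin ligase that acts in spermatid differentiation, had 5.08 FPKM against 0.210, and schuy 5.40 FPKM with embryos listed at 0. In contrast m-cup had 7.02 and 6.38 FPKM, and s-cup was listed at 0 in sperm with 1.21 FPKM in embryos. Axonemal dyneins, the motors of the flagellum, reached 1 FPKM for 5 of 19 genes, with a median of 4.003. Of these 4 were higher in sperm, such as robl62A with 6.97 against 0.224 FPKM, and 1 in embryos. Of 8 single-copy Y genes only Ppr-Y was a member, with 1.16 FPKM in sperm and 0 in embryos. Of 10 spermatocyte regulators 2 were higher in sperm (topi and sa) and 4 in embryos (twe, mip40, nxf2 and Nxt1), 20% and 40% against 14.6% and 28.5% of all genes, with a median of -1.40. At high sugar 0 were higher in sperm and 1 in embryos, the median was -0.65 and the log2 ratio of twe was 0.44. The translational regulator bol had 22.6 FPKM in sperm and 72.1 in embryos.

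Pairs of a testis or germ line form and a general form of the same protein gave a comparison within a tissue, which needs no scaling between tables. The testis form had the higher level in 3 of 39 pairs in sperm and in 0 in embryos. These 3 were sa over Taf8, both subunits of the TFIID family (3.58 and 1.92 FPKM), tomboy40 over Tom40, of the mitochondrial import pore (8.35 and 7.31 FPKM), and twe over stg, both Cdc25 phosphatases (0.955 FPKM, with stg listed at 0). Its share of the pair was larger in sperm than in embryos in 30 pairs and smaller in 9, with median shares of 3.52% and 0.356%. In the high sugar pools the median shares were 9.43% and 0.283%. For the beta tubulin of the sperm axoneme, betaTub85D, the levels were 25.8 FPKM in sperm and 0.463 in embryos, while the general betaTub56D had 195 and 183 FPKM. The chaperonin Hsp60B had 9.31 FPKM in sperm and 0.0631 in embryos against 23.5 and 61.4 for Hsp60. Cytochrome c went the other way, with a share of Cyt-c-d of 15.7% in sperm and 27.2% in embryos.

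**Figure D4:**
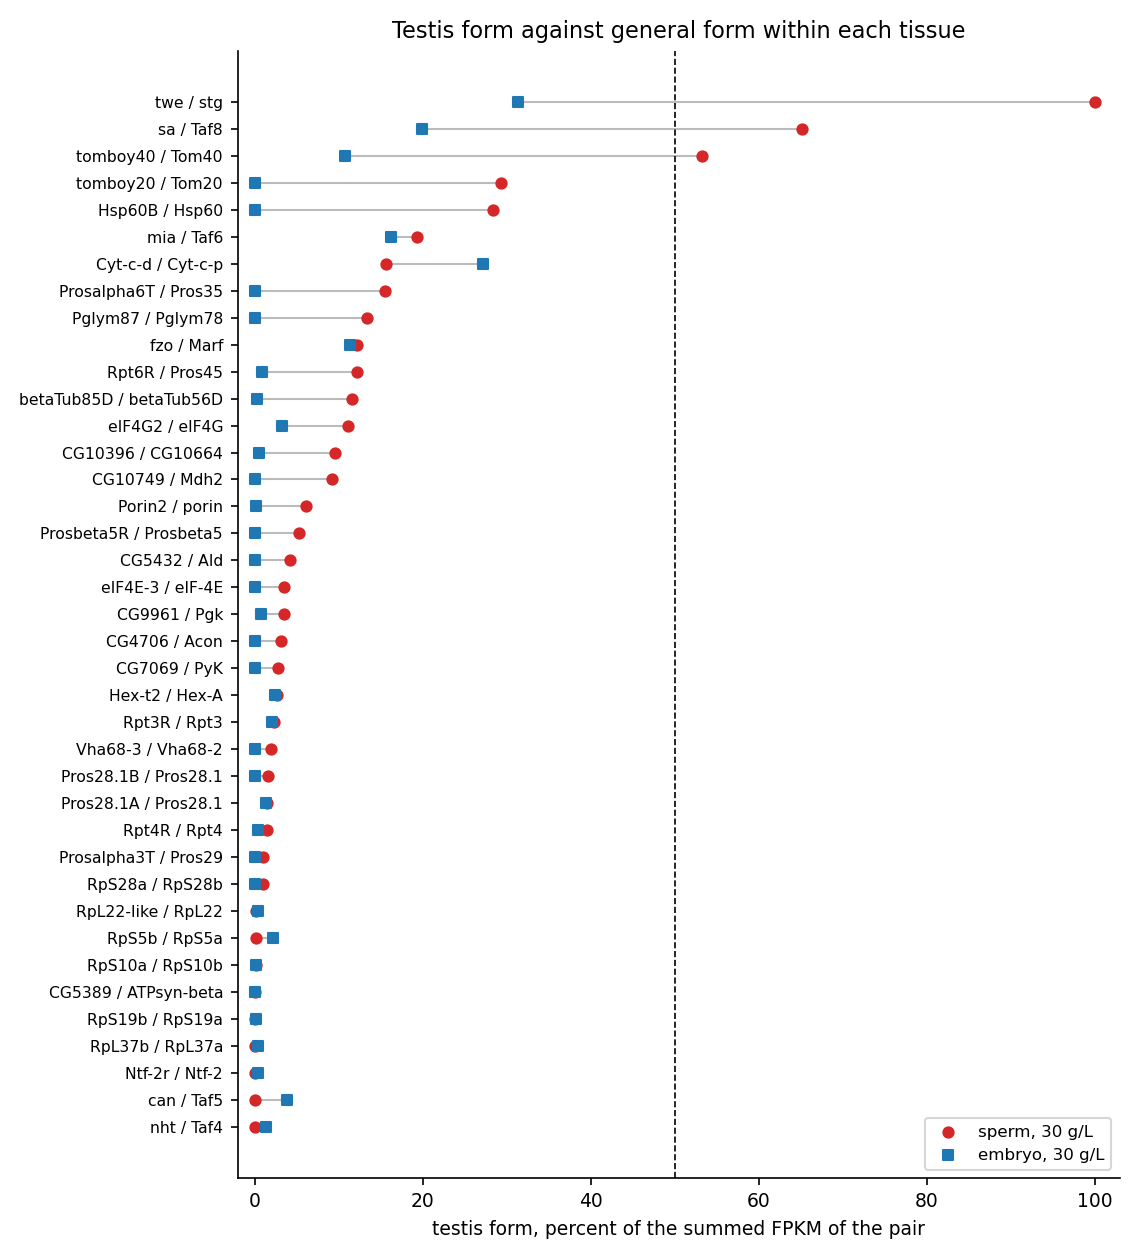
Share of the testis or germ line form in the summed FPKM of each of 39 gene pairs (x axis, percent; names on the y axis give the testis form and then the general form), in sperm (red circles) and embryos (blue squares) at 30 g/L. Points lie right of the dashed line at 50% where the testis form is the higher, which holds for 3 pairs in sperm and for 0 in embryos.

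Products of the male glands were present in the sperm pool. Of 21 accessory gland genes 16 were higher in sperm and 3 in embryos (Sfp65A, Sfp70A4 and Acp53C14c), with a median of 4.61. Before the bound of 1 FPKM this list had 40 genes, of which 18 reached it in sperm and 6 in embryos. Mst57Db had 58.9 FPKM in sperm and was listed at 0 in embryos. Acp70A, the sex peptide that alters female behaviour after mating, had 11.1 FPKM in sperm, 49.8 in the high sugar pool and 0 in both embryo pools. Acp36DE, needed for sperm storage in the female, lay the other way, with 5.75 FPKM in sperm and 13.3 in embryos. Of 7 ejaculatory duct and bulb genes 5 were higher in sperm and 0 in embryos, with a median of 3.73. Before the bound that list had 14 genes, of which 7 reached 1 FPKM in sperm and 3 in embryos. Dup99B, a duct peptide related to the sex peptide, had 254 FPKM with embryos listed at 0. The esterase Est-6 had 67.6 FPKM against 0.206, and PebIII 248 against 23.97. The sums of the gland and duct markers given above are in the same pool, and their part in these levels was not tested.

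Defence genes divided. Of 25 antimicrobial and immune genes 14 were higher in sperm and 5 in embryos, with a median of 3.12 that was 1.22 in the high sugar pools. IM14, an immune-induced peptide, had 519 FPKM in sperm and was listed at 0 in embryos, IM4 had 324 and 1.31 FPKM, and Anp, the andropin of the ejaculatory duct, 72.9 FPKM with embryos at 0. The related peptides IM1 and IM2 were higher in embryos, with 47.0 and 45.5 FPKM against 0 and 2.20 in sperm. CecA1, a cecropin, differed between sperm pools, with 1.36 FPKM at 30 g/L and 251 at 300 g/L. Of 22 serpins, which inhibit proteases, 7 were higher in sperm and 5 in embryos (median 0.74). That is 31.8% and 22.7%, against 14.6% and 28.5% of all genes. Spn43Ab had 57.6 FPKM in sperm and 2.101 in embryos, while its neighbour in name Spn43Aa had 0.445 and 49.9. Odorant-binding proteins were split 6 and 6 of 15, 40% in each direction (median -1.38). At high sugar 2 of them were higher in sperm and 8 in embryos (median -2.23). Obp51a had 128 FPKM in sperm and 9.58 in embryos, and Obp83g 1.12 and 107.

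**Figure D5:**
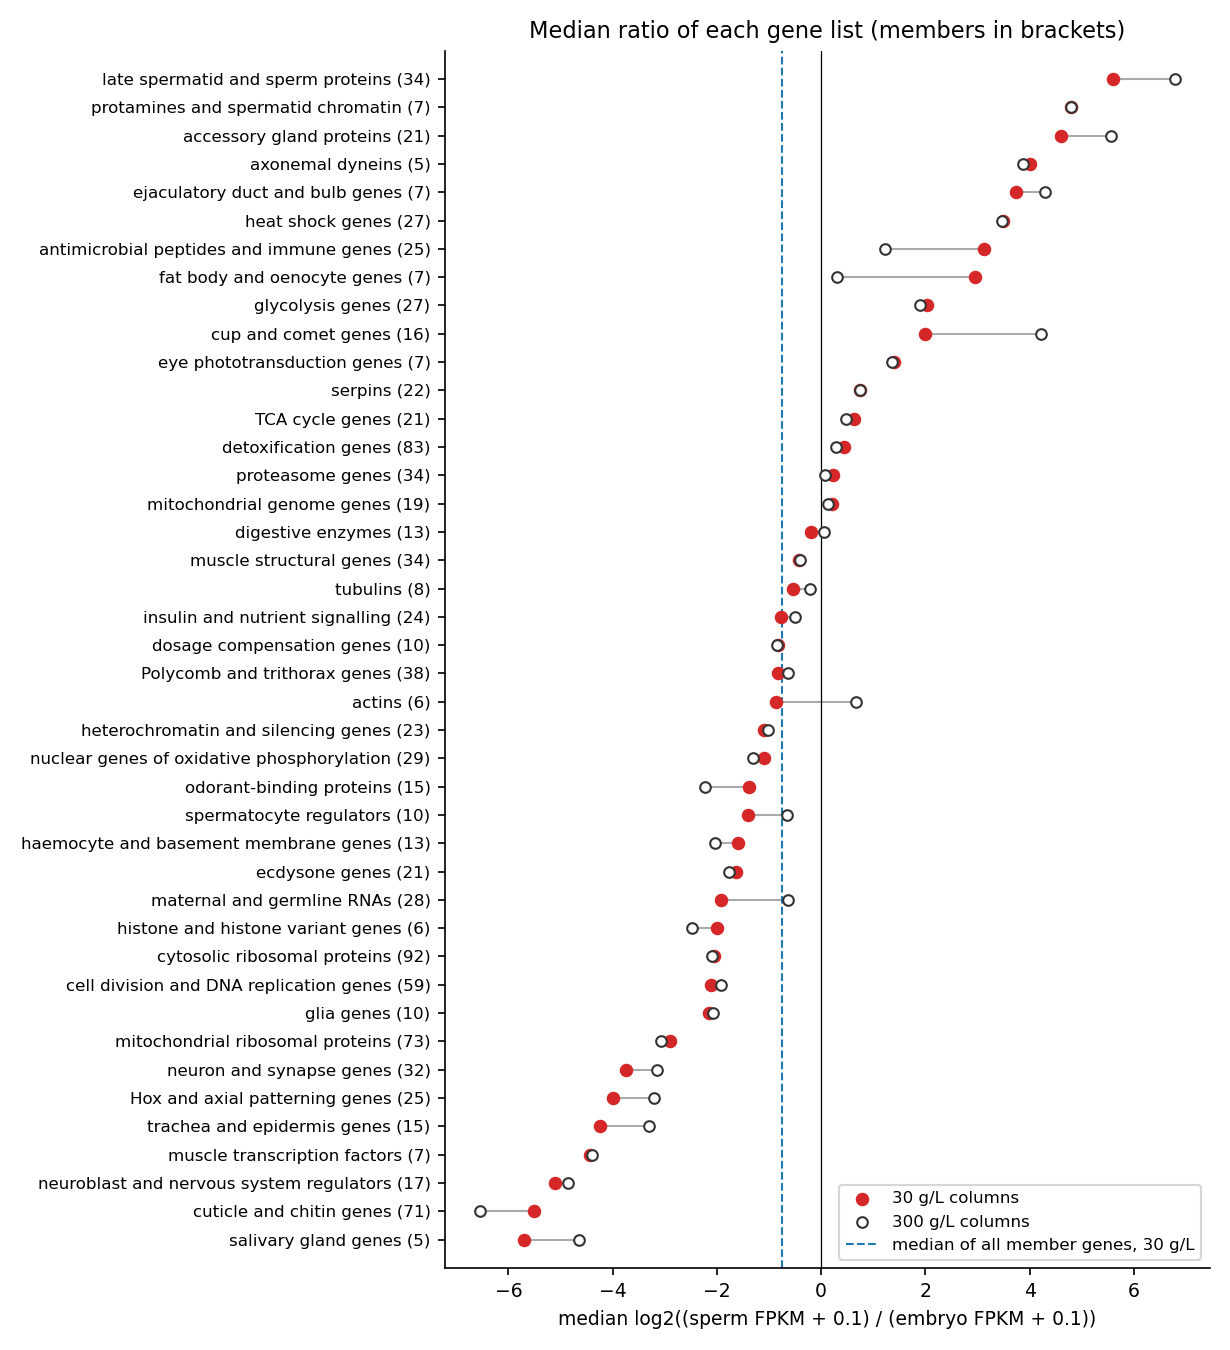
Median log2((sperm FPKM + 0.1)/(embryo FPKM + 0.1)) of the gene lists with at least 5 members, in the 30 g/L pools (red) and the 300 g/L pools (open circles), with the number of members in brackets. The dashed line marks the median of all member genes, -0.76; late spermatid genes lie at 5.59 and cuticle genes at -5.50, and the antimicrobial, fat body, cup and comet and actin lists are among those that differ between the conditions.

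Heat shock proteins were higher in sperm in 15 of 27 cases, 55.6% against 14.6% of all genes. They were higher in embryos in 0, against 28.5%. Their median was 3.50, and 3.47 in the high sugar pools. Among the genes induced by heat, the small heat shock protein Hsp22 had 306 FPKM in sperm and 0.805 in embryos, Hsp26 447 and 4.57, and Hsp68 228 and 0.826. Of the constitutive chaperones, Hsc70-4 had 582 and 361 FPKM, Hsp83 442 and 147, and Hsc70-5, of the mitochondrion, 23.6 and 92.8. Several Hsp70 genes are near-identical copies whose reads may be split between them, so their single values are uncertain.

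Glycolysis genes were largely higher in sperm. Citrate cycle genes lay near all genes only in the share higher in sperm, and oxidative phosphorylation genes only in the share higher in embryos. Of 27 glycolysis genes 15 were higher in sperm, 55.6% against 14.6% of all genes, and 1 in embryos, with a median of 2.02, and 26 of 27 had the higher percentile rank in sperm. Hexokinase Hex-A had 342 FPKM in sperm and 6.45 in embryos, pyruvate kinase PyK 148 and 14.1, and lactate dehydrogenase ImpL3 263 and 63.1. Aldolase, Ald, was level, at 183 and 181 FPKM. The exception in the other direction was fbp, fructose bisphosphatase of the reverse pathway, with 3.42 FPKM in sperm and 121 in embryos. Of 21 citrate cycle genes 4 were higher in sperm, 19% against 14.6% of all genes, and 0 in embryos, against 28.5%. Their median was 0.63, and 19 of 21 had the higher percentile rank in sperm. The 4 sperm-higher genes were CG10749, CG4706, CG6255 and CG33791, and the first 3 had 5.99, 1.66 and 8.27 FPKM in sperm. Of 29 nuclear genes of oxidative phosphorylation 1 was higher in sperm, 3.45% against 14.6% of all genes. In embryos 7 were higher, 24.1% against 28.5%, and the median was -1.10. The difference between pathways was not tested. ATPsyn-beta, of the ATP synthase, had 248 FPKM in sperm and 1199 in embryos. Gpdh, glycerol phosphate dehydrogenase, which is in both the glycolysis and the muscle list, had 185 and 13.1 FPKM.

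Genes that handle foreign compounds were past 4-fold towards sperm more often than all genes, and towards embryos about as often. The list of cytochrome P450 and glutathione transferase genes has 83 members. Of these 32 were higher in sperm and 22 in embryos, 38.6% and 26.5% against 14.6% and 28.5% of all genes, with a median of 0.43. Cyp1, a cyclophilin and not a P450, is among the 83 and lay between the bounds, with 373 FPKM in sperm and 575 in embryos. The GstD genes were mainly on the sperm side: GstD5 had 666 FPKM against 5.16 and GstD10 185 against 3.21. GstE6 had 53.7 FPKM in sperm and 276 in embryos, and Cyp6d5 291 and 69.1. Digestive enzymes were few among the members, 13 of 47, with 4 higher in sperm, 30.8%, and 6 in embryos, 46.2%. Their median of -0.19 changed sign under every scaling tried, to 0.12, 0.65 and 0.57, and in the high sugar pools, to 0.05. The amylase Amy-p had 35.2 FPKM in sperm and was listed at 0 in embryos, and lambdaTry, a trypsin, 0 and 7.74. Amy-p and Amy-d are near-identical copies and their split is uncertain.

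Structural genes of muscle stood at high ranks in both tissues. Their median percentile was 96.9 in sperm and 93.4 in embryos, and they held 2.80% and 2.14% of the nuclear protein-coding sum without CG18628. Of 34 members 7 were higher in sperm, 3 in embryos and 24 lay between. The sperm and embryo counts are 20.6% and 8.82%, against 14.6% and 28.5% of all genes. In the high sugar pools the counts of these 34 were 3 and 1, where 13.9% and 28.1% of all genes were higher. The list median of -0.43 was 0.43 and 0.33 under the scalings that remove the top sperm gene or centre the ratios. The myosin heavy chain Mhc had 313 FPKM in sperm and 306 in embryos. Act57B, an actin of larval muscle, had 926 and 1416 FPKM, and the myosin light chain Mlc2 513 and 1059. The Z-disc protein Zasp66 had 213 FPKM in sperm and 10.7 in embryos, and Mp20 520.3 and 74.5, whereas the troponin C gene TpnC47D had 31.9 and 401. By contrast the regulators of muscle fate were low in sperm. Of 7 of them 0 were higher in sperm and 5 in embryos (median -4.44), with nau, the myogenic factor, at 0 and 8.04 FPKM and Mef2 at 6.07 and 14.9. Actins and tubulins divided by gene. Act87E had 506 FPKM in sperm and 109 in embryos, Act42A 75.7 and 296, and Act5C 689.6 and 470.5; the actin median of -0.87 was 0.66 in the high sugar pools. Of 8 tubulins, 1 (betaTub85D) was higher in sperm and 1 in embryos (alphaTub85E, 1.38 and 30.6 FPKM), and their median of -0.54 was 0.31 and 0.22 under the scalings that remove the top sperm gene or centre the ratios.

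The fat body list also divided. Of 7 members 4 were higher in sperm and 2 in embryos, with a median of 2.95 that was 0.31 in the high sugar pools and -0.33 with no floor on low values. Tsf1, the iron carrier transferrin, had 429 FPKM in sperm at 30 g/L, 107 at 300 g/L and 0.0466 in embryos. Rfabg, the lipid carrier of the blood, had 70.4 FPKM in sperm and 2476 in embryos. Of 6 fat body markers, 2 reached 1 FPKM in sperm, and Fbp2 and Lsp1alpha were listed at 0. Of 7 phototransduction genes, expressed in the adult eye, 2 were higher in sperm and 0 in embryos. The eye markers ninaE and ninaC, which are not among these 7, were listed at 0 in sperm. Before the bound of 1 FPKM the phototransduction list had 18 genes, of which 6 reached it in sperm and 6 in embryos. The median of 1.39 turned to values below 0 when lower genes were let in. rdgA, a lipid kinase, had 18.3 and 3.30 FPKM.

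Genes of the larval cuticle were largely on the embryo side. Of 71 members 59 were higher in embryos, 83.1% against 28.5% of all genes, and 3 in sperm, with a median of -5.50. In sperm 47 of them were listed at 0. Before the bound of 1 FPKM the list had 137 genes, of which 68 reached it in embryos and 16 in sperm. The Tweedle gene TwdlF had 426 FPKM in embryos, Gasp, a chitin-binding protein of the trachea, 371 and Cpr65Ea 192, each with sperm listed at 0. The chitin deacetylase verm had 246 FPKM in embryos and 0.734 in sperm. Cpr51A was an exception in level, with 74.2 FPKM in sperm and 180.1 in embryos. In the high sugar pools 61 of the 71 were higher in embryos.

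The Osiris genes, which encode membrane proteins of cuticle-forming cells, were the only one of 44 families of at least 8 members in which every member lay past 4-fold. Families were formed by the start of gene names after values were seen. All 16 members lie on 3R between 2036721 and 2167146, a span of 130 kb, and all 16 were higher in embryos, with a median of 104 FPKM there. In sperm 10 of the 16 were listed at 0 and the highest reached 1.97 FPKM. Osi6 had 1875 FPKM, Osi7 990 and Osi15 359 in embryos, against 0, 0.364 and 0 in sperm. Of 8 Cad genes, which encode cadherin adhesion proteins, 7 were higher in embryos. Of 15 dpr genes, which encode surface proteins of neurons, 11 were higher in embryos and 1 in sperm.

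Ecdysone genes, which act in the hormone pathway of moulting, were higher in embryos in 10 of 21 cases and in sperm in 2, with a median of -1.63. These counts are 47.6% and 9.52%, against 28.5% and 14.6% of all genes. The ecdysone-inducible genes ImpL1 and ImpE2 had 691 and 390 FPKM in embryos and were listed at 0 in sperm, and ImpE1 had 107 and 0.184. The nuclear receptor ftz-f1 had 57.2 FPKM in embryos and 6.18 in sperm. Of 15 genes of trachea and epidermis 10 were higher in embryos and 0 in sperm (median -4.25). The zona pellucida protein tyn had 263 FPKM in embryos and 0.722 in sperm, while the polarity gene crb had 16.1 and 19.1. Of 5 salivary gland genes 3 were higher in embryos (fkh, PH4alphaSG1 and PH4alphaSG2), and 1, sage, in sperm, with 31.2 FPKM against 3.89 (list median -5.70). Of 13 genes of haemocytes and basement membrane 6 were higher in embryos and 1 in sperm (median -1.60). Among them the laminin LanA had 376 FPKM in embryos and 43.1 in sperm, and the collagen Cg25C 66.5 and 9.58.

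Genes of neurons and neural precursors were on the embryo side, and glial genes were divided. Of 32 neuron and synapse genes 20 were higher in embryos and 0 in sperm, with a median of -3.75. The RNA-binding protein fne had 105 FPKM in embryos and 0.189 in sperm, elav, the standard neuronal marker, 44.5 and 3.52, and the sodium pump subunit nrv3 106 and 1.76. The synaptic vesicle priming factor unc-13 lay between the bounds, with 67.6 and 32.7 FPKM. Of 17 regulators of neural precursors 15 were higher in embryos, 88.2%, and 0 in sperm (median -5.11), with ase at 3.35 FPKM in embryos and grh at 20.7, against 0 and 0.161. Of 10 glial genes 5 were higher in embryos and 2 in sperm, with a median of -2.14 that was 0.59 without genes that share a locus. Their median percentile rank was 74.8 in sperm and 53.2 in embryos. The astrocyte gene alrm had 54.7 FPKM in embryos and 3.39 in sperm, while the glutamine synthetase Gs2 had 11.0 and 116.

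Patterning genes were mostly on the embryo side, with exceptions. Of 25 Hox and axial patterning genes 18 were higher in embryos and 1 in sperm, with a median of -3.99. The posterior genes Abd-B and abd-A, which specify abdominal segments, had 40.7 and 30.4 FPKM in sperm and 12.6 and 18.5 in embryos. Ubx and Antp, of the thorax and anterior abdomen, had 0.123 and 1.28 FPKM in sperm and 10.2 and 21.9 in embryos, and Scr, Dfd and lab, of the head and first thoracic segment, were listed at 0 in sperm. The levels of Abd-B and abd-A were 36.8 and 26.8 FPKM in the high sugar sperm pool. The homeobox partner hth had 102 FPKM in embryos and 0.147 in sperm, and the signal hh was the member higher in sperm, with 32.1 FPKM against 2.85.

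The translation machinery ranked high in both tissues and higher in embryos. Cytosolic ribosomal proteins held 38.6% of the nuclear protein-coding sum without CG18628 in embryos and 15.3% in sperm. Of 92 members 49 were higher in embryos and 2 in sperm (median -2.05), and 84 had the higher percentile rank in embryos. The 2 exceptions, RpS28a and RpL10Aa, are minor copies with 8.03 and 4.68 FPKM in sperm. RpS28a was listed at 0 in the high sugar sperm pool and in both embryo pools, and 1 member was higher in sperm in the high sugar pools. Many ribosomal proteins have retrocopies or paralogs between which reads may be split. Mitochondrial ribosomal proteins were more uniform. Of 73 genes 62 were higher in embryos, 84.9%, and 0 in sperm, with a median of -2.90, and all 73 had the lower percentile rank in sperm. Examples are mRpS5, with 21.998 FPKM in sperm and 135 in embryos, and mRpL23 with 5.23 and 96.0. Of 34 proteasome members 5 were higher in sperm, 14.7% against 14.6% of all genes, and 0 in embryos, against 28.5%. The proteasome median was 0.23, against -0.76 for all members, and 32 of 34 had the higher percentile rank in sperm. The 5 past 4-fold were Prosbeta4R1, Prosbeta4R2, Prosalpha6T, Prosbeta5R and Rpt6R, all duplicates of a general subunit. The core subunit Pros25 had 61.1 and 55.6 FPKM.

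Genes of cell division were largely on the embryo side, and maternal RNAs were divided. Of 59 genes of the cell cycle and DNA replication 30 were higher in embryos and 0 in sperm, with a median of -2.11. CycA had 0.438 FPKM in sperm and 32.1 in embryos, and the kinase cdc2 2.00 and 34.4. Of 28 maternal and germ line RNAs 13 were higher in embryos, 1 in sperm and 14 lay between (median -1.92, and -0.64 in the high sugar pools). Their median percentile rank was 31.4 in sperm and 31.1 in embryos. That 1 gene was exu, which moves RNA in the oocyte and also acts in spermatogenesis, with 37.3 FPKM in sperm and 2.94 in embryos. The polar granule gene osk had 3.39 FPKM in embryos and was listed at 0 in sperm. Of 18 yolk and eggshell genes 1 was a member, Cp15, at 0 in sperm and 1.82 FPKM in embryos.

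Chromatin regulators had list medians near that of all genes. Of 38 Polycomb and trithorax genes 35 lay between the bounds. In embryos 3 were higher, 7.89% against 28.5% of all genes, and in sperm 0, against 14.6%. The list median of -0.84, close to the -0.76 of all members, was 0.01 when both tables were scaled to one sum without the top sperm gene. The glycosyl transferase sxc had 57.9 FPKM in sperm and 151 in embryos, and pho, which recruits Polycomb proteins to DNA, 21.5 and 60.9. Of 23 heterochromatin genes 5 were higher in embryos, 21.7%, and 0 in sperm (median -1.09). HP1, the protein that binds methylated histone H3, had 24.7 and 95.5 FPKM. The dosage compensation RNAs roX1 and roX2, which coat the male X chromosome, had 463 and 671 FPKM in sperm and 463.5 and 936 in embryos. Of 10 genes of that pathway 2, Sxl and msl-3, were higher in embryos, 20%, and 0 in sperm. Their list median of -0.83 was 0.01 under the same scaling. Genes of insulin and nutrient signalling showed 1 of 24 higher in sperm, 4.17%, and 4 in embryos, 16.7%. Their median of -0.78 was 0.07 under that scaling. The insulin receptor InR had 14.9 FPKM in sperm and 34.4 in embryos, and Thor, the 4E-BP that restrains translation, 28.1 and 11.9.

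Genes higher in sperm had lower medians of exon number and transcript length than the others. By the newer annotation their longest transcript had a median of 2 exons and 1391.5 nucleotides, and 26.4% had a single exon. The embryo-higher genes had 3 exons, 1664 nucleotides and 11.6% with a single exon, and the genes between the bounds had 4 exons, 2115 nucleotides and 10.4%. Of the sperm-higher nuclear protein-coding genes 70.2% carried only a CG number, against 54.3% of the embryo-higher ones. Sperm-higher genes made up 16.4% of the members on 2L, 14.9% on 2R, 13.7% on 3L, 15.7% on 3R and 12.6% on X, all near the 14.7% over all arms. On chromosome 4 it was 0 of 79 members, with 36.7% higher in embryos. On X 22.2% were higher in embryos, against 27.5% over all arms. Genes are not independent replicates, and these shares carry no test.

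At the lower bound of the set, CG17197 entered with 1.00 FPKM in sperm and a value listed at 0 in embryos, and Ir10a with 1.00 FPKM and 0.431. CG11762 and run stayed out, just under 1 FPKM in embryos and listed at 0 in sperm.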

How the data were processed

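Per the labels, Trizol was used for total RNA, a Ribo-Zero kit removed rRNA and TruSeq libraries kept the strand. Reads were processed with TopHat2 2.0.8 and Cuffdiff 2.1.1 on build BDGP5, per the submitters' processing notes, with an annotation that is not named there. FPKM values in the deposited tables are 1 per gene and group, so the authors combined the 2 libraries before deposit, and nothing in the labels says whether these came from separate crosses. Number of per-sample columns left unused: 0.

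The tables were joined on gene identifier with python 3.11.15, pandas 2.3.3 and numpy 2.4.6, and figures were drawn with matplotlib 3.10.9. Ratios used a pseudocount of 0.1 FPKM, and 12 alternatives were tried. Ratios and counts past 4-fold were checked on simulated data, and the choice of members and percentile ranks on small made-up examples. Of 15146 identifiers, 14278 occur in the newer BDGP6 annotation (Ensembl), which gave classes and structures only. Deposited loci count from 0 (2100 lone genes then match the newer length, against 152), so 1 was added to starts. Of the members, 4626 share a locus with another gene, and for these the locus is that of the group. The 2 7SL RNA genes are listed at 0 in embryos because the authors' table marks them as having too many reads.

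The members and the 44 lists were chosen with earlier results of these data known. Named genes are those with a given name and no ribosomal, transfer or small RNA: the 15 highest in each tissue, the 15 largest ratios each way at 10 FPKM or more, up to 6 of each list by level, the pairs, the 10 highest in both tissues, CG genes among the first 5, and the genes nearest the bound. The following were picked outside that rule, with values already seen: CG10407, CG42521, Mst84Da, Mst33A, Tektin-C, gdl-ORF39, topi, schuy, soti, s-cup, aly, comr, Acp70A, Acp36DE, Sfp65A, Sfp70A4, Acp53C14c, CecA1, Hsp68, Hsc70-5, fbp, CG6255, Mhc, Mp20, TpnC47D, Zasp66, Fbp2, Lsp1alpha, ninaE, ninaC, elav, Syt1, para, ase, Ubx, Antp, Scr, Dfd, lab, osk, RpL10Aa and the neighbours of CG18628. No test was possible between pools with 1 value each.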

Additional observations from a re-analysis of the deposited data

Results flagged for a closer look

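Act88F, the actin of the indirect flight muscle, lay on opposite sides in the sugar conditions. It had 0.669 FPKM in sperm and 1.58 in embryos at 30 g/L, a log2 ratio of -1.13, and 1.24 and 0.253 FPKM at 300 g/L, a log2 ratio of 1.92. The high sugar ratio minus the medium sugar ratio was 3.05. With 1 value per group this difference was not tested, and all 4 levels were below 2 FPKM.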

How the results depend on the processing

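No paired analysis was possible because each group has 1 deposited value, and for the same reason no replicate could be left out. The 3184 genes higher in embryos became 2120 with a pseudocount of 1 FPKM, 2105 with a floor of 5 FPKM, 1872 without genes that share a locus, 1570 at 16-fold and 5036 at 2-fold. The 1627 genes higher in sperm became 1085 with a pseudocount of 1 FPKM, 1018 with a floor of 5 FPKM and 1105 without genes that share a locus. They were 820 at 16-fold and 2327 at 2-fold. The median of the phototransduction genes was -0.84 with a floor of 0.1 FPKM, -0.29 with no floor and -0.48 without shared loci. That of the fat body genes was -0.33 with no floor, and that of the glia genes 0.59 without shared loci. In the high sugar pools the log2 ratio was 0.44 for twe and 0.86 for Act79B, the percentile rank of the yolk genes was 3.51 points higher in sperm, and Hsp60B exceeded Hsp60 by 5.18% of the pair in sperm. The causes were not tested. Of 344 named genes, no other ratio past 4-fold changed sign in the high sugar pools.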
